A study of Mus musculus with 2 samples.

Results

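Phospholipase C beta and inositol trisphosphate (IP3) signalling was examined as 10 genes chosen by name in the granule layer of the mouse cerebellum: Plcb1, Plcb2, Plcb3, Plcb4, Itpr1, Itpr2, Itpr3, Itpka, Itpkb and Inpp5a. All 10 were found among the 43346 annotated genes of the deposited tables. RNA came from 2 areas of 18000 square microns cut by laser capture, with a starting quantity of 50 cells and 1 Smart-seq library each. Both areas are granule layer tissue of adult male wild-type B6NCrl mice aged 8 months, with no treatment named, and form a single group (n = 2). They share a donor label, so whether the spread between them includes a spread between animals is not known.

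In this pathway a receptor activates the G protein subunits Gq or G11, which switch on phospholipase C beta at the plasma membrane. The enzyme splits the membrane lipid PIP2 into diacylglycerol, which stays in the membrane and recruits protein kinase C, and IP3, which diffuses to the endoplasmic reticulum and opens IP3 receptors so that calcium enters the cytosol. Kinases (Itpka, Itpkb) and a phosphatase (Inpp5a) remove IP3. In the cerebellum the pathway is best known from Purkinje cells, where glutamate drives it at parallel fibre synapses.

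The 2 libraries held 19962271 and 19261911 expected counts on annotated genes in replicates 1 and 2, so 3 counts correspond to 0.150 and 0.156 counts per 1000000. The tissue label was checked against markers. All 12 granule neuron markers were detected in both areas, led by Gabra6 at 925 and 1086 TPM (transcripts per 1000000, a level corrected for transcript length). Markers of other cells were present too: the summed TPM of 11 Purkinje markers other than Itpr1 was 385 in replicate 1 and 455 in replicate 2, of 8 Golgi cell markers 53.5 and 37.3, and of 6 unipolar brush cell markers other than Plcb4 74.9 and 100. Those of 9 Bergmann glia and astrocyte markers were 748 and 725, of 9 oligodendrocyte markers 741 and 985, of 9 microglia markers 106 and 78.9, of 8 endothelial markers 331 and 269, of 8 mural cell markers 46.1 and 78.8 and of 5 red blood cell markers 5040 and 390. No listed marker had 0 counts in both areas, and the mural cell genes Acta2 and Tagln were at 0 in replicate 1. In captured tissue, fewer cells of a type and less RNA per cell cannot be told apart, and no level below was assigned to a cell type.

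Transcripts of Plcb4, Plcb1 and Inpp5a differ near the end of the coding sequence, and the stretches that separate them are shown because the transcript levels reported further on turn on them. The bases were read from the GENCODE M21 transcript sequences (GRCm38, which is mm10), 5′ to 3′ on the plus strand, with flanks of 20 bases in lower case. Capitals mark, for Plcb4-213, the exon that Plcb4-202 lacks, and for Plcb1 and Inpp5a the coding bases that the other transcript of the pair lacks; untranslated bases that also differ are not shown. Plcb4-213 holds an exon at chr2:136010936-136010972, exon 8 of its 9, which Plcb4-202 skips between its exon 36, ending at 136007909, and its last exon, starting at 136012966. Plcb1-202 ends its coding sequence at chr2:135472053-135472277 and Plcb1-201 at chr2:135399249-135399344. Inpp5a-203 uses a later splice site, and its coding sequence of 412 codons ends in the added bases, at chr7:139578219-139578259. Inpp5a-201 joins 139578218 to 139578354 and has the longer coding sequence, of 422 codons.
Plcb4-213: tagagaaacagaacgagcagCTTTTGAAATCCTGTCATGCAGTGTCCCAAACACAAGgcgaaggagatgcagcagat
Plcb4-202: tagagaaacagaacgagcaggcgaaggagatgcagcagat
Plcb1-202: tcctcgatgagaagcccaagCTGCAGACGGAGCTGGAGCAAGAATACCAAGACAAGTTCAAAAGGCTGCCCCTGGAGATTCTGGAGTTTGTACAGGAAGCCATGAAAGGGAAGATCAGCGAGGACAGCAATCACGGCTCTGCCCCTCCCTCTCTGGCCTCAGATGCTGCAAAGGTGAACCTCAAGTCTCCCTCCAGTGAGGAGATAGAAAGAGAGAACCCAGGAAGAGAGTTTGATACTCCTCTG
Plcb1-201: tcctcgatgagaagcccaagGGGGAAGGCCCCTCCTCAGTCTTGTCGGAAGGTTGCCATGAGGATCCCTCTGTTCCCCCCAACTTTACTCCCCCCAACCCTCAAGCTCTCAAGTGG
Inpp5a-203: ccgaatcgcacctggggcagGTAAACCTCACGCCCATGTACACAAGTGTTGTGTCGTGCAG
Inpp5a-201: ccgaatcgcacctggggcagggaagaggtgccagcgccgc

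Plcb4 was the highest of the 4 phospholipase C beta genes in both areas. It stood at 165 TPM in replicate 1 and 168 TPM in replicate 2 (166 ± 1.97, SD, n = 2 areas), from 7679 and 6935 counts (ENSMUSG00000039943.12, mm10 chromosome 2, 135659011 to 136014593, plus strand). It ranked at places 724 and 728 of 21474 protein-coding genes. Plcb1, which encodes the isoform found widely in forebrain neurons, was at 16.9 and 10.6 TPM (13.7 ± 4.45), from 1109 and 653 counts (ENSMUSG00000051177.12, chromosome 2, 134786067 to 135475258, plus strand). The ranges of these genes over the areas did not overlap, and the mean of Plcb4 was 12.1 times that of Plcb1. Plcb3, a broadly expressed isoform, was at 0.44 and 0.45 TPM with 31 counts in each area. Plcb2, the isoform of blood cells and of taste cells, had 7 counts in replicate 1 and 1 in replicate 2, at 0.19 and 0.01 TPM. Of the summed TPM of the 4 genes, 182 and 179 in replicates 1 and 2, Plcb4 held 90.4% and 93.8%, and Plcb1 held 9.26% and 5.92%. The share of Plcb4 was 87.0% and 91.0% of the counts, which are not corrected for length.

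The IP3 receptors, which form the calcium release channels of the endoplasmic reticulum, were low by comparison. Itpr1, the form known for its abundance in Purkinje cells, was at 4.95 TPM in replicate 1 and 3.81 TPM in replicate 2 (4.38 ± 0.806, SD, n = 2), from 827 and 618 counts (ENSMUSG00000030102.8, chromosome 6, 108213096 to 108551109, plus strand). By the TPM of all transcripts the mean of Plcb4 was 37.9 times that of Itpr1. With protein-coding transcripts alone, a version added after seeing the data, the means were 108 and 4.38 TPM. The gap was smaller in counts, which are not corrected for length, at 7679 and 6935 for Plcb4 in replicates 1 and 2. Itpr3 was at 1.39 and 0.96 TPM, from 212 and 142 counts. Itpr2, a form known from glia and peripheral tissues, was at 1.54 and 0.58 TPM although its counts were 88 and 87. Itpr1 held 62.8% and 71.2% of the summed TPM of the 3 receptors. Its share was 73.4% and 73.0% of their counts, and 67.0% ± 5.94 on average by TPM. The order of Itpr3 and Itpr2 was not separated by the spread, since Itpr2 was the higher in replicate 1 and Itpr3 in replicate 2.

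Among the 3 genes for removal of IP3 described here (Inpp5a, Itpkb and Itpka), the phosphatase gene was the highest. Inpp5a, which encodes the type I 5-phosphatase that ends IP3 signals, was at 10.2 and 10.8 TPM in replicates 1 and 2 (10.5 ± 0.382, SD, n = 2), from 478 and 475 counts (ENSMUSG00000025477.9, chromosome 7, 139389109 to 139579652, plus strand). Itpkb, which encodes a widely expressed IP3 3-kinase, was at 4.26 and 4.24 TPM (4.25 ± 0.0141), from 399 and 393 counts. Itpka, the neuronal 3-kinase of dendritic spines, was at 1.05 TPM in replicate 1 and 0.24 TPM in replicate 2, from 31 and 7 counts. The mean of Inpp5a was 2.47 times that of Itpkb, and their ranges did not overlap. It was 2.39 times that of Itpr1, also without overlap.

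**Figure D1:**
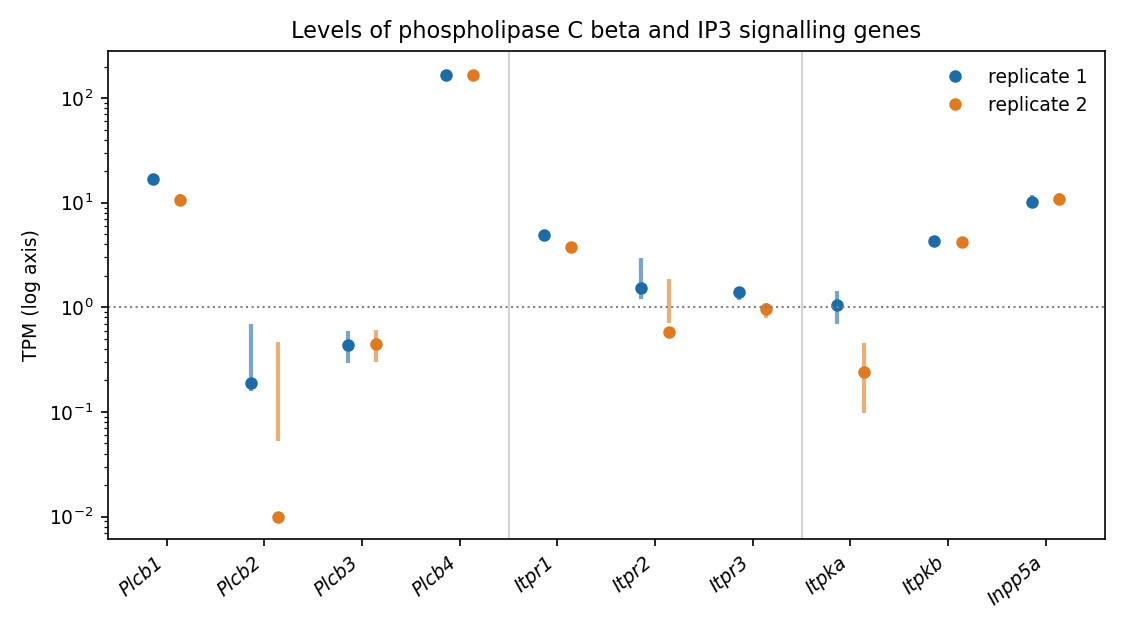
Each point is the TPM of a gene in 1 area on a log axis (replicate 1 blue, replicate 2 orange), and each bar is the interval deposited by the authors, whose level is not stated; the dotted line marks 1 TPM. Plcb4 lies at 165 and 168 TPM, above every other gene shown, and 5 genes lie above the line in both areas. In replicate 2 the points of Itpr2 (0.58 TPM) and Plcb2 (0.01 TPM) lie below their bars.

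Placed in order of mean TPM, the genes ran from Plcb4 through Plcb1, Inpp5a, Itpr1, Itpkb, Itpr3, Itpr2, Itpka and Plcb3 to Plcb2. The ranges over the 2 areas overlapped for the neighbours Plcb1 and Inpp5a, Itpr1 and Itpkb, Itpr3 and Itpr2, Itpr2 and Itpka, and Itpka and Plcb3, so those places are not separated by the spread. They did not overlap between Plcb4 and Plcb1, Inpp5a and Itpr1, Itpkb and Itpr3, or Plcb3 and Plcb2. With protein-coding transcripts alone, a version added after seeing the data, Plcb1 averaged 7.18 TPM and lay below Inpp5a at 10.4 TPM. A gene was called detected in an area at 1 TPM or more with an expected count of 5 or more. By that rule 5 of the 10 genes (Plcb1, Plcb4, Itpr1, Itpkb and Inpp5a) were detected in both areas, against a background of 50.4% of protein-coding genes, so the share is at the background. Over all 43346 annotated genes the background was 28.9%. Itpr2, Itpr3 and Itpka were detected in replicate 1 only, and Plcb2 and Plcb3 in neither. The Itpr2 call in replicate 2 is uncertain, since its 0.58 TPM lay below its own deposited interval of 0.716 to 1.87. The median of the 10 genes was 2.90 TPM in replicate 1 and 2.38 TPM in replicate 2, beside 1.42 and 1.38 TPM over all protein-coding genes.

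The areas were then compared gene by gene, which asks whether a gene's counts in these 2 libraries differ by more than counting error. In 5 genes replicate 1 had more counts than counting allows (two-sided exact binomial test of each gene's share of the library, Benjamini-Hochberg adjusted over 16636 genes). Plcb1 was 1.64-fold higher in replicate 1 by counts per library total (95% exact interval 1.49 to 1.81, adjusted p = 2.41e-22). Itpr1 was 1.29-fold higher (1.16 to 1.44, adjusted p = 1e-05), Itpr3 was 1.44-fold higher (1.16 to 1.79, adjusted p = 0.00268), and Itpka was 4.27-fold higher (1.85 to 11.5, adjusted p = 0.000531). Plcb4 was 1.07-fold higher by counts (1.03 to 1.10, adjusted p = 0.000293) but lower in replicate 1 by TPM. The genes called were 5 of the 9 in the test, against a background of 47.6% of all genes in either direction, 24.0% higher in replicate 1 and 23.7% higher in replicate 2. None of the 5 calls was kept with every count divided by 10, a setting in which 10 reads stand for a single molecule and 0.653% of all genes were called. The test takes reads as independent, compares these libraries only and says nothing of a condition.

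Itpkb, Inpp5a, Plcb3 and Itpr2 lay within counting error. Their count ratios of replicate 1 over replicate 2 were 0.980 (0.850 to 1.13) for Itpkb, 0.970 (0.853 to 1.10) for Inpp5a, 0.965 (0.567 to 1.64) for Plcb3 and 0.976 (0.717 to 1.33) for Itpr2, with adjusted p from 0.744 to 0.939 by the exact binomial test. The intervals of Itpkb and Inpp5a hold differences of under 1.2-fold, while that of Plcb3 holds more than 1.5-fold. Plcb2, with 8 counts in all, was not in the test. Marker sums of Golgi, Bergmann glial and astrocytic, microglial, endothelial and red blood cells were also higher in replicate 1, and those of Purkinje, unipolar brush, oligodendrocyte, mural and granule cells higher in replicate 2. Their part in the differences of Plcb1, Itpr1, Itpr3 and Itpka was not tested.

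On the TPM scale 3 of the 9 genes with 10 or more summed counts were over 1.5-fold apart in TPM + 1. These were Plcb1, Itpr2 and Itpka, all higher in replicate 1. The background over all genes with such counts was 13.1% in either direction and 7.25% higher in replicate 1. Among genes detected in both areas it was 8.51%, and Plcb1 was the only one of the 5 members so detected past 1.5-fold. Itpr2 was among the 3 by TPM, at a log2 ratio of 0.68, while its counts gave -0.04. Its deposited intervals, 1.2 to 2.98 TPM in replicate 1 and 0.716 to 1.87 TPM in replicate 2, overlapped. The length that the authors' program assigned to Itpr2 was 3444 bases in replicate 1 and 9027 bases in replicate 2, 2.62 times apart, as its counts were placed on different transcripts. For Plcb4 the assigned lengths were 2818 and 2583 bases, which turned more counts in replicate 1 into a slightly lower TPM there. Itpkb was the third gene with TPM and counts on opposite sides, at 4.26 and 4.24 TPM and a log2 count ratio of -0.03, both differences being small. TPM and counts thus pointed to opposite sides for 3 of the 9 genes, against 7.04% of all genes in the test.

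**Figure D2:**
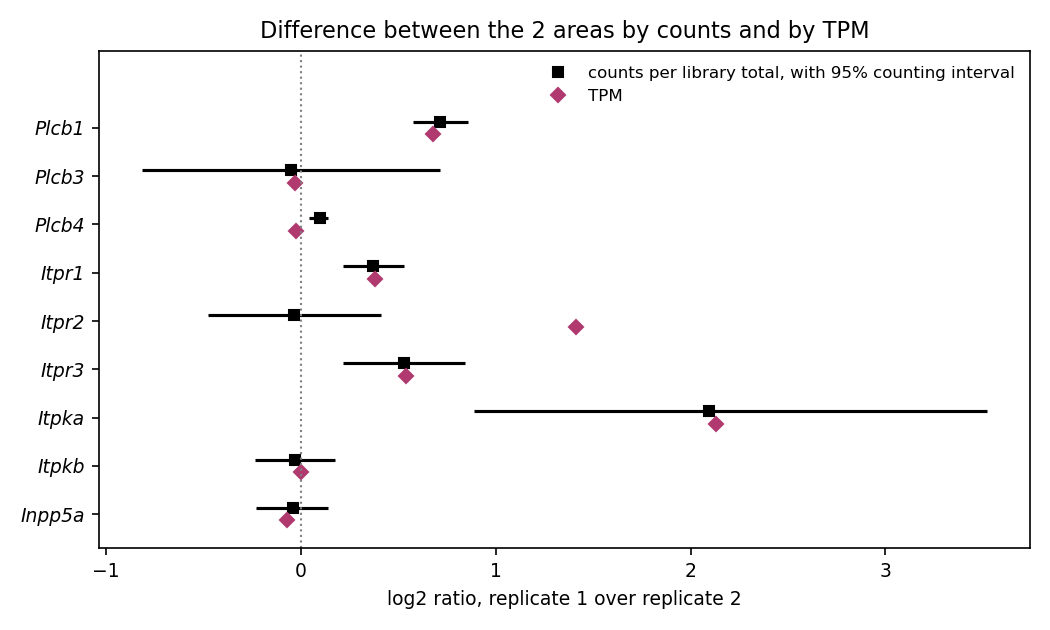
Log2 ratio of replicate 1 over replicate 2 for the 9 genes with 10 or more counts in all: black squares are counts per library total with a 95% exact counting interval, and purple diamonds are TPM without a pseudocount. The squares and diamonds lie close together except for Itpr2, at -0.04 by counts and 2.66-fold apart by TPM; for Itpr2, Plcb4 and Itpkb the 2 values lie on opposite sides of 0.

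The transcript tables were used to see which forms of the genes the areas held. Transcript levels are estimates from reads that isoforms share, and those with 10% or more of their gene's TPM in either area are described. Plcb3, Itpr1, Itpr3 and Itpka had 1 annotated transcript each in the tables, so no splice forms of Itpr1 could be read. The other 6 genes had between 2 and 15.

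Plcb4 was spread over 13 transcripts with counts. Plcb4-202, which holds the whole coding sequence of 1175 codons, was at 56.3 and 47.4 TPM in replicates 1 and 2, or 34.2% and 28.3% of the gene, with deposited intervals that did not overlap. Plcb4-213, a model of 2307 bases that covers the 3′ part of the gene and holds the 37-base exon printed above, was at 51.9 and 58.9 TPM, or 31.5% and 35.1%, with overlapping intervals. The exon's length is not a multiple of 3, so the annotated reading frame after it differs from that of Plcb4-202. Plcb4-213 shares 2270 of its bases with Plcb4-202, and the split between them therefore rests on the 37 bases that it alone holds and on how reads spread along the gene. The remaining forms over the threshold, Plcb4-207 with a retained intron (18.1 and 18.5 TPM) and the noncoding Plcb4-208 (17.5 and 15.9 TPM), lie in the 5′ part of the gene. Transcripts typed as protein-coding in GENCODE M21 held 66.4% and 64.0% of the TPM of Plcb4 and 90.6% and 90.1% of its counts.

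Plcb1 is known in 2 protein forms that differ at the C-terminal end, PLCβ1a and PLCβ1b. Plcb1-202, with the longer coding sequence of 1216 codons that matches PLCβ1a, had 848 and 511 counts in replicates 1 and 2, at 7.17 and 4.45 TPM. Plcb1-201, with the shorter one of 1173 codons that matches PLCβ1b, had 0 counts in replicate 1 and 2.82 in replicate 2, although 427 of its bases are not shared with Plcb1-202. The retained-intron form Plcb1-204, in the 5′ part of the gene, was at 8.73 and 4.38 TPM, or 51.7% and 41.4% of the gene's TPM, from 252 and 123 counts. Both Plcb1-202 and Plcb1-204 were higher in replicate 1, and their deposited intervals in the 2 areas did not overlap. Plcb1-205 was at 0.98 and 1.71 TPM, or 5.82% and 16.2% of the gene, from 9.45 and 16.1 counts, with overlapping intervals. It was 661 bases long in the authors' tables and is 7202 bases in M21, so its form here is not known. Its M21 coding sequence has 1173 codons, as many as that of Plcb1-201. The counts of Plcb1-201 alone therefore do not settle the level of PLCβ1b.

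Inpp5a, Itpr2 and Plcb2 had counts on different sets of transcripts in the 2 areas, and Itpkb on the same pair. Itpkb-201, the coding form, held 59.1% and 65.4% of its gene in replicates 1 and 2, and the retained-intron form Itpkb-202 held 40.9% and 34.6%. Inpp5a-203 held 100% in replicate 1 and 62.8% in replicate 2, where Inpp5a-201 held 34.9%, against 0 in replicate 1. The deposited intervals of Inpp5a-201 overlapped between the areas, as those of Inpp5a-203 did, and the 2 transcripts differ by 52 bases. The length of Itpr2-201 was 11699 bases in the authors' tables and is 8331 bases in M21, so its form here is not known either. The counts of Itpr2 were placed mainly on Itpr2-201 in replicate 1 (69.7 of 88) and on Itpr2-202 in replicate 2 (80.4 of 87), with 7.99 counts on the 582-base Itpr2-203 in replicate 1 making up 62.9% of its TPM. Itpr2-206 held 14.3% in replicate 1, and Itpr2-208 held 28.8% in replicate 2. Plcb2 had its 7 counts in replicate 1 on the retained-intron form Plcb2-205 and its 1 count in replicate 2 on Plcb2-202.

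**Figure D3:**
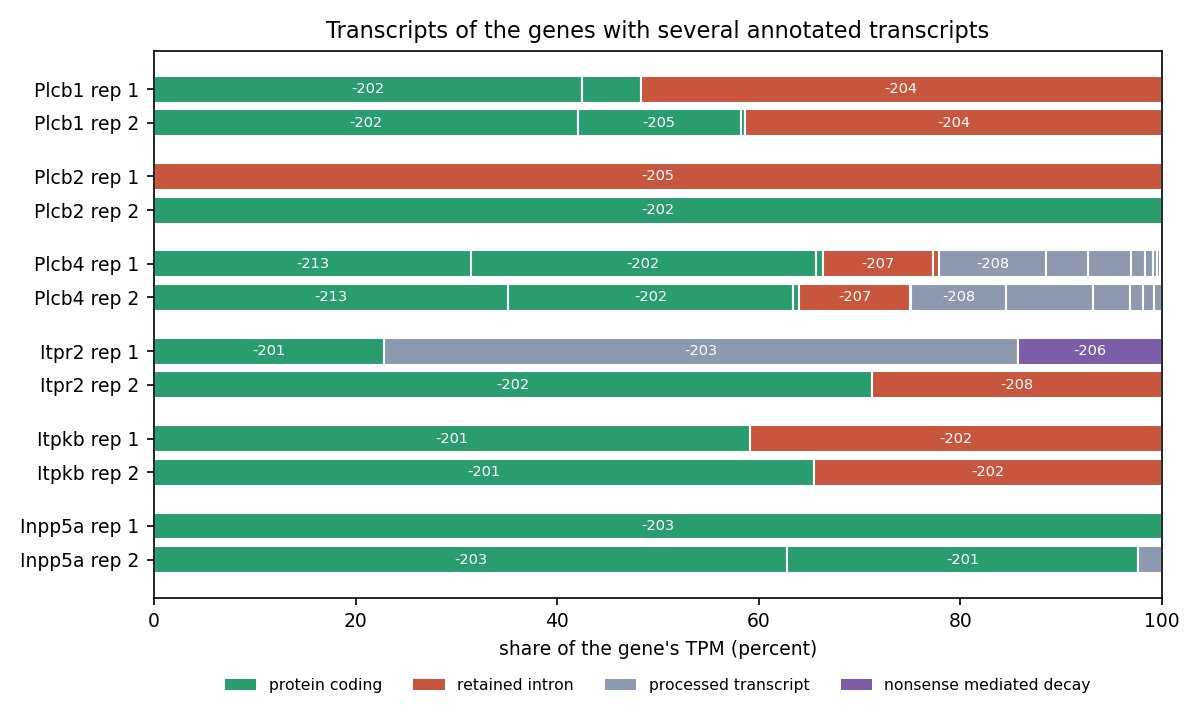
Bars show the share of each gene's TPM (percent) held by its transcripts in each area, coloured by GENCODE M21 transcript type, with transcripts of 9% or more labelled by the number after the gene's name. Plcb1, Plcb4 and Itpkb have the same pair of leading transcripts in both areas with shifted shares (Plcb1-204 at 51.7% and 41.4% in replicates 1 and 2), whereas Itpr2 and Plcb2 rest on different transcripts.

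Exons of other genes overlap 6 of the 10 genes, and the use of strand in counting is not given in the sources used here. Reads of Plcb3 (31 counts per area) and its opposite-strand neighbour Ppp1r14b (144 and 92.9 counts), of Itpkb and the pseudogene Gm5069 (86.7 and 46.2 counts), of Inpp5a and Nkx6-2 (79.3 and 104 counts), and of Plcb1 and 9630028H03Rik (25.6 and 20.8 counts) could be shared where they overlap. The overlapping genes of Itpr3 had 0 counts, and those of Itpr1 are not in the tables.

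The rest of the pathway was described from 9 lists that hold 172 genes, of which 170 matched a gene of the tables; Itprip and Ssfa2 did not. In all, 104 genes (61.2%) were detected in both areas, beside 50.4% of protein-coding genes and 28.9% of all annotated genes; the difference was not tested. By list the share was 12.5% for receptors, 50.0% for Gq family subunits, 57.1% for other phospholipase C genes and 59.1% for calcium release and refill. It was 63.3% for the diacylglycerol branch, 77.3% for proteins that bind or regulate IP3 receptors and 84.2% for inositol phosphatases and supply. Inositol phosphate kinases had 88.9% and PIP2 supply 94.4%. Between the areas, 41 of the 139 tested pathway genes had more counts in replicate 1 and 44 in replicate 2 by the same exact binomial test and threshold, a share of 61.2% beside 47.6% of all genes. Genes outside the 4 highest and 2 lowest of a list that are named below (Grm5, Ryr2, Ryr3 and Prkca) were chosen after their values were seen.

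Upstream of the enzyme, the G protein genes Gnaq and Gna11 were at 30.2 and 25.9 TPM and at 19.2 and 18.1 TPM in replicates 1 and 2. Gna14 had 9 and 0 counts and Gna15 had 0 in both areas, so 2 of the 4 Gq family genes were detected. Of 32 receptor genes, 4 were detected in both areas (12.5%, beside 50.4% of protein-coding genes). Among them were Gpr158, whose coupling to Gq is not established, at 27.4 and 27.1 TPM, and the endothelin receptor Ednrb at 28.1 and 25.4 TPM. The lysophosphatidic acid receptor Lpar1 was another, at 6.48 and 8.00 TPM. Grm5, the gene of the glutamate receptor mGluR5, was at 1.20 and 0.97 TPM. Hcrtr1 and S1pr2 were among 12 receptor genes with 0 counts in both areas.

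By the TPM of all transcripts, Plcb4 was also above each of the 14 other phospholipase C genes. The nearest was Plcxd3, which encodes a small protein with the X domain of the family, at 107 and 115 TPM in replicates 1 and 2. With protein-coding transcripts alone Plcb4 averaged 108 TPM, beside 111 TPM for all transcripts of Plcxd3. The protein-coding level of Plcxd3 was not computed, so the order of these genes on that basis is not known. Plcxd2 was at 15.8 and 17.2 TPM, Plcd4 at 10.9 and 15.2 TPM and the calcium-sensitive Plch2 at 10.9 and 11.1 TPM. Plcg2 had 0 and 8 counts, and the sperm enzyme gene Plcz1 had 0; 8 of the 14 were detected in both areas. Of the genes for PIP2 supply, 17 of 18 were detected in both areas (94.4%, beside 50.4% of protein-coding genes), with a median of 10.2 TPM. They were led by the lipid transfer protein gene Pitpna at 82.4 and 94.9 TPM, the lipid kinase gene Pi4ka at 74.9 and 63.0 TPM, the phosphatidylinositol synthase gene Cdipt at 56.3 and 69.5 TPM, and Pitpnm1 at 52.8 and 56.2 TPM. The lowest were Pitpnm2 at 1.65 and 2.62 TPM and Pi4k2b at 0.21 and 1.17 TPM.

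Downstream of IP3, the other inositol phosphate kinases were detected in 8 of 9 cases with a median of 7.41 TPM. Ppip5k1, Ip6k2 and Ip6k1, which make inositol pyrophosphates, were at 46.8 and 50.8, 35.8 and 49.5, and 19.6 and 20.3 TPM, followed by Ppip5k2 at 9.44 and 10.4 TPM. Itpkc, the IP3 3-kinase outside the 10 genes, was at 2.24 and 1.98 TPM, between Itpkb and Itpka, and Ip6k3 had 7 and 0 counts. Inositol phosphatases and inositol supply had 16 of 19 genes detected and a median of 16.2 TPM. Inpp4a, Inpp5f and the synaptic vesicle phosphatase gene Synj1 were at 86.9 and 90.7, 82.9 and 63.7, and 70.1 and 66.9 TPM. Impa1, which encodes an inositol monophosphatase, was at 48.2 and 54.1 TPM, and Inpp5d and Inppl1 were under 1 TPM in both areas. Inpp5a, at 10.5 TPM, lay below the median of this list of phosphatase and inositol supply genes. The list is not limited to enzymes that act on IP3 or its products.

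Genes for proteins that bind or regulate IP3 receptors were detected in 17 of 22 cases with a median of 8.10 TPM. Fkbp1a was at 266 and 238 TPM in replicates 1 and 2, Grina at 130 and 161 TPM, and Ahcyl1, which encodes the IP3-site binding protein IRBIT, at 85.2 and 100.2 TPM. All 3 have known roles apart from IP3 receptors. Itpripl2 had 11 and 8 counts and Tespa1 had 0. Other genes of calcium release and refill had 13 of 22 detected, with the chaperone genes Canx at 208 and 252 TPM and Hspa5 at 77.8 and 85.6 TPM. The calcium pump gene Atp2a2 was at 86.5 and 88.8 TPM, and Tmco1 at 77.2 and 86.8 TPM. Ryr2, a ryanodine receptor that also releases calcium from the endoplasmic reticulum, was at 12.9 and 12.1 TPM, and Ryr3 at 11.7 and 6.56 TPM. Both were above Itpr1 in both areas, per length. By counts Ryr2 was above Itpr1 too, but Ryr3, with 573 and 371 counts, was below the 827 and 618 counts of Itpr1, so its place rests on the assigned length. The cation channel genes Trpc6 and Trpc7 had 0 counts in both areas.

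In the diacylglycerol branch, 19 of 30 genes were detected, with a median of 3.04 TPM. The protein kinase C gene Prkcb was at 197 and 185 TPM in replicates 1 and 2, a level near that of Plcb4. Prkca was at 1.90 and 3.83 TPM. The lipase gene Mgll was at 100.9 and 67.2 TPM, Unc13c, whose product primes synaptic vesicles and binds diacylglycerol, at 68.8 and 82.5 TPM, and the diacylglycerol kinase gene Dgkg at 51.9 and 56.6 TPM. Rasgrp4 had 1 and 4 counts and Dgkk had 0.

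**Figure D4:**
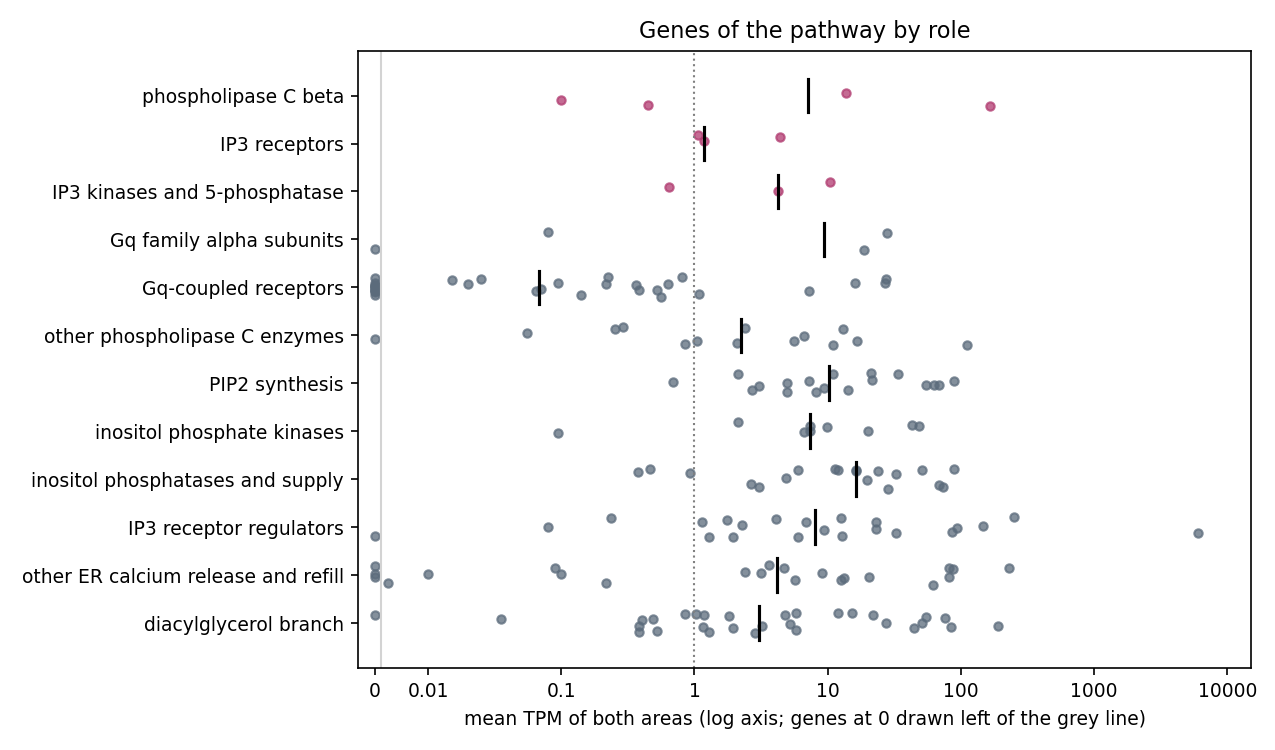
Each point is the mean TPM of 1 gene over both areas on a log axis, by role in the pathway, with the 10 genes in purple, other genes in grey and a black line at each list's median; genes at 0 lie left of the grey line. Plcb4 at 166 TPM stands apart from the other phospholipase C beta genes, and most receptor genes lie below 1 TPM.

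The 10 genes lie on 6 chromosomes, 4 of them (Plcb1, Plcb2, Plcb4 and Itpka) on chromosome 2, where Plcb1 and Plcb4 follow each other on the plus strand with 184 kb between them. RefSeq promoter windows of 300 bases, mostly before a start (GRCm38.p6), were found for 9 of the 10 genes, 11 windows in all; Itpr1 had none in the table used. The motif GGGCGG, read on both strands, was present in 8 of the 11 windows, against 35.7% of 32851 windows of all genes. The windows of the 10 genes were also richer in CpG dinucleotides, with a median of 26 against 7 over all windows. The motif count was not compared with windows of like base content. TATAAA and TGACGTCA were present in none, against 13.6% and 1.79% of all windows, and CACGTG in 1, against 7.15%. The upstream window of Plcb4 had 50 CpG dinucleotides and 84.0% G + C, at percentiles 99.3 and 99.8 of all windows. Its other window, chr2:135764588-135764887, had 3 and 44.3%, at percentiles 31.4 and 21.1. Plcb4-202 starts at 135741830, in neither window. The Itpkb window had 5 CpG dinucleotides and 39.3% G + C. A match is a description of these letters and not a binding site.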

How the data were processed

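The members and gene lists were chosen with earlier results of these data known. The deposited expected counts, per the file headers, are estimated numbers of reads per gene or transcript, with shared reads split. The deposited notes name mm10 as build and GENCODE M4 as annotation. For the aligner, counting program and read filters, the answer is not given in the sources used here. TPM and FPKM were deposited by the authors, normalized for effective length, as were score columns (interval bounds of TPM, posterior standard deviation of counts) and the percent of each gene held by a transcript. Smart-seq reads carry no molecule counts here, so the exact count intervals and the floors cover counting error only. The deposited TPM intervals are separate from these and can be wide where isoforms share reads. That of Inpp5a-201 in replicate 2 ran from 1.6 to 6.4 TPM on 167 counts.

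Of 69691 rows, 26248 with numeric IDs and 97 spike-ins or others were left out of totals. IDs without version were matched to GENCODE M21 (42462 of 43346). Expected counts were rounded to whole numbers and tested with a two-sided exact binomial test against library totals, on genes with 10 or more summed counts, at an adjusted p of 0.05. The test was run on simulated counts that held counting error only, as the test assumes. That run checks the code and does not show that the assumption holds for these libraries. Fold differences in TPM used log2(TPM + 1). Scaling alternatives used edgeR 4.0.16 and DESeq2 1.42.0; other steps used Python 3.11.15, pandas 2.3.3 and scipy 1.17.1. Named genes were all 10 members, the 4 highest and 2 lowest of each pathway list, the 3 highest of each marker list (in part given as sums) and transcripts with 10% or more of their gene; some genes that the rule names are not reported here. With 2 areas in 1 group no permutation test can pass 0.05.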

Additional observations from a re-analysis of the deposited data

How the results depend on the processing

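The count of 5 detected genes became 9 at a minimum of 0.1 TPM and 3 at 5 TPM, beside 59.4% and 37.0% of protein-coding genes, and ranged from 5 to 8 when 1 area was left out. Plcb4 held 92.1% of its family's TPM and 89.0% of its counts, and from 90.4% to 93.8% with 1 area left out. Itpr1 held 67.0%, but 60.6% by posterior mean TPM, 73.2% by counts and 73.7% with protein-coding transcripts alone, a version added after seeing the data; the range without 1 area was 62.8% to 71.2%. The 5 genes beyond counting error were the same genes under TMM scaling, DESeq2 size factors and no filter, and 0 with counts divided by 10, where the adjusted p of Plcb1 was 0.143 by the exact binomial test. The 3 genes over 1.5-fold apart became 0 with a pseudocount of 5, 0 at 2-fold, and 1 (Plcb1) among genes detected in both areas, also added after seeing the data. By TMM-scaled counts they were Plcb1 and Itpka, without Itpr2. Under the alternatives run, no called count ratio changed sign. These settings could hardly change one, since the log2 ratio of Plcb1, for example, stayed between 0.71 and 0.72. The unchanged signs therefore show nothing of the stability of a direction. Mean levels moved by over 1.5 times with protein-coding transcripts alone for Plcb1 (7.18 TPM, against 13.7), Plcb4 (108, against 166), Itpkb (2.65, against 4.25) and Itpr2 (0.385, against 1.06), and that of Plcb2 was 0.005, against 0.1. By posterior mean TPM, Itpr2 was at 1.66 and Plcb2 at 0.315. With 2 areas, leaving out 1 moves a mean by less than 1 SD by construction, so it shows nothing of the stability of a level. Depth limits Plcb2, Plcb3 and Itpka, which had under 40 counts per area. No paired analysis was possible because there is only 1 group.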
